A study of Macaca fascicularis with 56 samples.

Results

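The genes of the mitochondrial respiratory chain were followed in whole blood of cynomolgus macaques (Macaca fascicularis) after an endotoxin challenge. They were taken as the genes whose probe sets on a human HG-U133 Plus 2 array carried a single symbol beginning with NDUFA, NDUFB, NDUFC, NDUFS, NDUFV, SDH, UQCR, COX4 to COX8 or ATP5, without the NDUFAF assembly factors and pseudogenes. Each gene was read by its probe set with the highest mean log2 intensity over the 56 arrays. This gave 84 of the 19775 genes with a probe set of their own. Of these, 76 encode subunits, with 33 in complex I, 3 in complex II, 6 in complex III, 17 in complex IV and 17 in complex V. The other 8 are symbols that the prefixes also catch, namely ATP5IF1, SDHAF1, SDHAF2, SDHAF3, SDHAF4, NDUFB2-AS1, NDUFV1-DT and NDUFV2-AS1. The symbols NDUFC2, NDUFS5, NDUFS8 and UQCRH were carried by shared probe sets alone, and SDHB, UQCRFS1 and NDUFA4 were not analysed here.

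The respiratory chain passes electrons from nutrients to oxygen across the inner mitochondrial membrane. Complex I (NADH dehydrogenase) and complex II (succinate dehydrogenase, also an enzyme of the citric acid cycle) hand electrons to ubiquinone, complex III (the cytochrome bc1 complex) hands them to cytochrome c, and complex IV (cytochrome c oxidase) hands them to oxygen. Complexes I, III and IV pump protons, and complex V, the ATP synthase, uses the proton gradient to make ATP. A few subunits of complexes I, III, IV and V are encoded in mitochondrial DNA and the rest in the nucleus, and mature neutrophils are known to rely mainly on glycolysis while lymphocytes and monocytes hold more mitochondria.

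Blood was drawn at 0, 2, 4 and 8 h from 14 animals. The LR12 arm held 6 animals (Y31309 to Y31314), which received LR12 after endotoxin. LR12 is a peptide taken from the TREM-like transcript 1 protein. It binds ligands of TREM-1, an amplifying receptor on neutrophils and monocytes, in the receptor's place. The peptide control arm held 4 animals (Y31305 to Y31308) given LR12 with its residues scrambled, and 4 further animals (Y31301 to Y31304) formed the vehicle arm. The labels give no age, sex or dose, and they do not say whether vehicle animals received endotoxin or when hour 0 fell relative to the challenge. Each animal gave 1 array per hour, so the arms held 24, 16 and 16 arrays, and this number limits the precision.

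Macaque RNA was read with human probes, so levels were compared between groups for 1 gene and never between genes. Of the 84 symbols, 81 also stood in the macaque gene table. A gene was tested if its probe set lay above the array's median on at least 4 of the 56 arrays, and 80 of the 84 passed, among 16020 genes tested. COX7B2, COX8C, SDHAF3 and SDHAF4 did not pass. Array medians ran from 12.9 to 23.5 intensity units although all arrays had been scaled to 1 mean. All genes tested had a median log2 change of -0.18, -0.29 and -0.27 at 2, 4 and 8 h in LR12 animals, and of -0.12, -0.02 and 0.01 after centring each array on its median. Changes of gene groups are therefore also given relative to that median. The arrays also fell into 2 sets by an 18S control probe set, a split made after the values were seen. The high set held 23 arrays and the low set 33, and the high set held 1, 1, 2 and 3 of the 6 LR12 arrays at 0, 2, 4 and 8 h, 3, 0, 4 and 3 of the 4 peptide control arrays, and 2, 0, 2 and 2 of the 4 vehicle arrays.

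In the LR12 arm, respiratory chain genes moved in both directions and, counted together, about as often as other genes. Calls were made where limma gave an adjusted p below 0.05 (Benjamini-Hochberg over all genes tested, two-sided). At 2 h against 0 h, 11 of the 80 genes rose (13.8%) and 21 fell (26.2%), against 10.1% and 21.9% of all genes tested. At 4 h, 12 rose (15%) and 23 fell (28.8%), against 10.8% and 26% of all genes (36.8% together). At 8 h, 9 rose (11.2%) and 20 fell (25%), against 8.65% and 20.4% of all genes. The 3 comparisons share the same 0 h arrays. The median log2 change of the 80 genes was -0.16, -0.25 and -0.18, which lay 0.02, 0.04 and 0.08 above the median of all genes. The values at the later hour and at 0 h did not overlap for 11, 19 and 8 of the 80 genes at 2, 4 and 8 h (13.8%, 23.8% and 10%), against 14.5%, 19.4% and 14.2% of all genes. Leaving out animal Y31312 lowered the 8 h count of called genes to 16.

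How many of the falls were called depended on the scaling of the arrays. With each array centred on its own median, 10 genes rose and 18 fell at 2 h, 18 rose and 11 fell at 4 h, and 16 rose and 3 fell at 8 h. The same scaling called 10.4% of all genes up and 18.7% down at 2 h, 15.4% up and 16.8% down at 4 h, and 13.7% up and 9.83% down at 8 h. Of the genes called without centring, 28 of 32 remained called at 2 h, 23 of 35 at 4 h and 12 of 29 at 8 h. The 12 that remained at 8 h were the 9 that rose plus NDUFS7, NDUFV1 and ATP5MC2 among those that fell.

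Markers of blood cell types moved over the same hours. Of 9 T cell markers tested, 7, 9 and 9 fell at 2, 4 and 8 h in the LR12 arm and none rose, and of 6 granule genes of immature neutrophils, 6 rose at each hour. Among 7 mature neutrophil markers 5 rose at each hour, and 5, 4 and 3 of 6 B cell markers and 3, 5 and 4 of 6 NK and cytotoxic markers fell. Of 7 monocyte markers, 3, 5 and 4 rose and 3, 2 and 0 fell. The summed intensity of the T cell markers ran from 6597 to 12379 at 0 h, 1833 to 8672 at 2 h, 880 to 3112 at 4 h and 1192 to 3048 at 8 h in LR12 animals, and that of the granule genes from 5117 to 13489, 37127 to 53798, 28692 to 46863 and 25507 to 34218. In peptide control animals the T cell sum had medians of 5703, 6743, 2044 and 2994, and in vehicle animals of 8171, 5908, 4873 and 5632. Of 6 platelet markers, 0, 3 and 2 fell and 1, 0 and 0 rose, and of 6 erythroid markers, 0, 0 and 3 fell and 1, 0 and 0 rose. The platelet sum had medians of 10806, 10077, 5747 and 6799 at 0, 2, 4 and 8 h in LR12 animals, the erythroid sum of 26410, 30780, 22344 and 19347, and the NK and cytotoxic sum, in which no marker rose, of 2262, 2563, 3351 and 1259. In the NK and cytotoxic list 1 marker lay below the array median on every peptide control array at 8 h. In whole blood, fewer cells of a type and less RNA per cell cannot be told apart, and the part of these shifts in the respiratory chain values was not tested.

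Rises and falls were counted in each complex, with no test between complexes. Among all genes tested 10.1%, 10.8% and 8.65% rose and 21.9%, 26% and 20.4% fell at 2, 4 and 8 h in the LR12 arm. Of the 33 complex I genes, 5, 5 and 2 rose and 10, 12 and 7 fell. None of the 3 complex II genes rose, and 2, 1 and 2 fell. Of the 6 complex III genes, 2, 1 and 1 rose and none fell. Complex IV had 2, 4 and 4 rises and 2, 3 and 3 falls among 15 genes tested, and complex V had 2, 2 and 2 rises and 4, 5 and 5 falls among 17. The median log2 change relative to all genes was -0.06, -0.05 and 0.05 for complex I, -0.29, -0.05 and -0.23 for complex II, 0.40, 0.32 and 0.45 for complex III, 0.11, 0.20 and 0.35 for complex IV, and 0.05, 0.03 and 0.13 for complex V. With quantile normalization complexes II and III kept their signs (-0.426, -0.381 and -0.522, and 0.398, 0.300 and 0.226), as did complex IV (0.032, 0.121 and 0.432). Complex I then stood at -0.111, -0.210 and -0.128 and complex V at -0.019, -0.249 and -0.085, so that complex I at 8 h and complex V at each hour changed sign. With an offset added before log2, complex I at 8 h (-0.037) and complex V at 2 and 4 h (-0.025 and -0.085) changed sign, and so did complex I at 2 h (0.0055) with the mean of the probe sets of a gene and at 4 h (0.00094) with the array set as a covariate. In the high-control arrays alone complex I stood at 0.016 and 0.104 at 2 and 4 h and complex II at 0.00025 at 2 h, and in the low-control arrays alone complex V stood at -0.0029 at 4 h. With the probe set mean complex III kept its sign at 0.217, 0.202 and 0.169. These medians describe small gene groups. In the fit without centring, the complex II median over 3 genes was the value of SDHC alone at each hour.

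**Figure D1:**
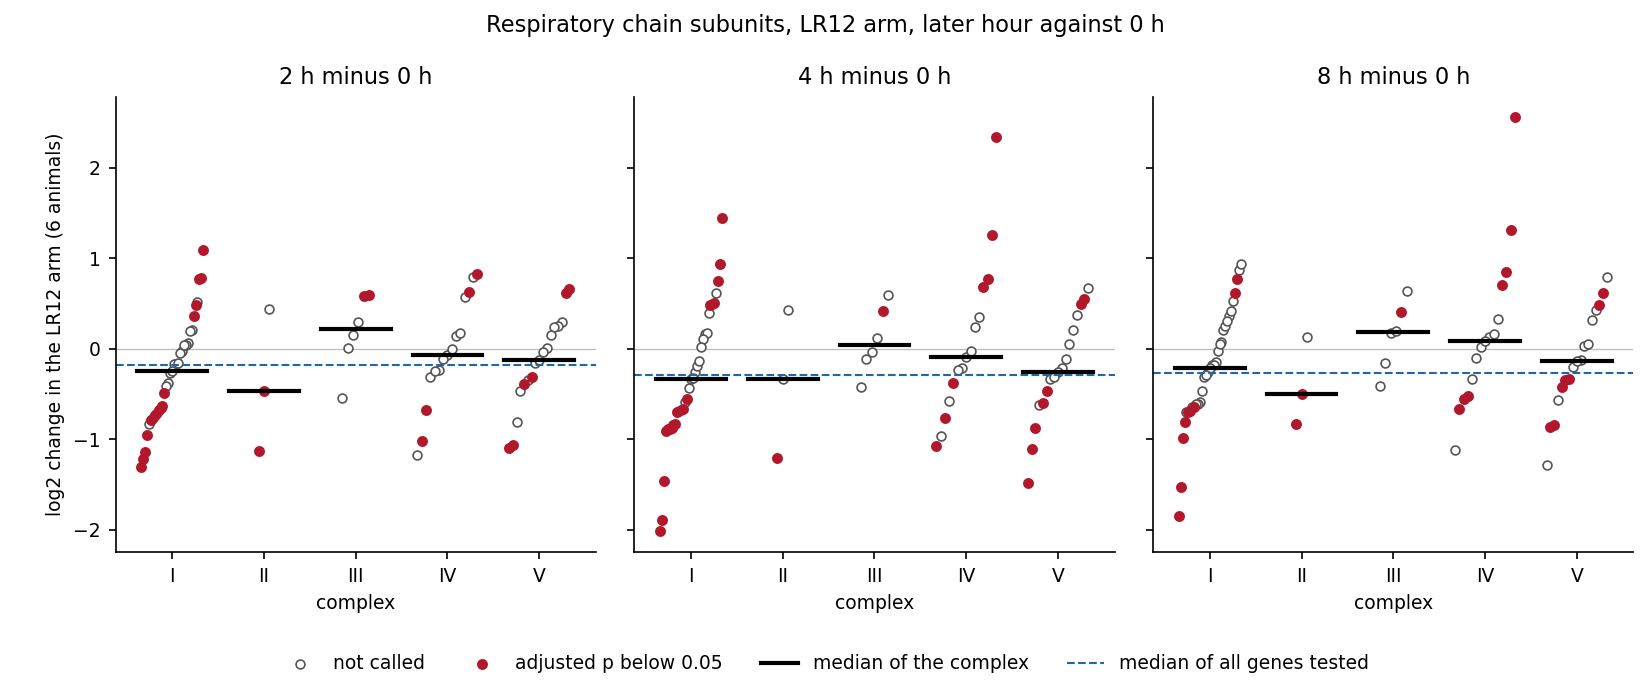
Log2 change of each respiratory chain subunit in the LR12 arm at 2, 4 and 8 h against 0 h, by complex; filled points were called by limma, each bar is the median of a complex and the dashed line the median of all genes tested. The median of complex III lies above the dashed line at each hour (0.40, 0.32 and 0.45 higher). Every complex, complex III included, has genes on both sides of the line at each hour.

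The spread between animals shows which of these shifts were shared. For each animal, the median change of a complex was set against the median change of all genes. Complex III stood at 0.40 ± 0.29, 0.41 ± 0.09 and 0.38 ± 0.30 at 2, 4 and 8 h in LR12 animals (mean ± SD, n = 6), with 0, 0 and 1 animals below 0. It stood at 0.25 ± 0.24, 0.12 ± 0.31 and 0.18 ± 0.19 in peptide control animals and at 0.08 ± 0.28, -0.03 ± 0.22 and 0.06 ± 0.21 in vehicle animals (n = 4 each). The ranges of LR12 and vehicle animals overlapped at 2 and 8 h, whereas at 4 h the LR12 animals ran from 0.28 to 0.53, the vehicle animals from -0.23 to 0.25 and the peptide control animals, across both, from -0.10 to 0.58. Complex IV stood at 0.17 ± 0.21, 0.26 ± 0.25 and 0.31 ± 0.15 in LR12 animals, with 2, 1 and 0 of 6 below 0. Its means were 0.07, 0.04 and 0.16 in peptide control and -0.02, -0.01 and 0.16 in vehicle animals. Complex II stood at -0.27 ± 0.36, -0.13 ± 0.27 and -0.36 ± 0.34 in LR12 animals, with 4, 4 and 5 of 6 below 0. Its means were also below 0 in peptide control (-0.36, -0.25 and -0.03) and vehicle animals (-0.17, -0.14 and -0.14). There 3, 2 and 2 of 4 peptide control and 4, 3 and 3 of 4 vehicle animals stood below 0. Complex I stood at -0.08 ± 0.29, -0.01 ± 0.25 and 0.08 ± 0.40 and complex V at 0.11 ± 0.20, 0.13 ± 0.19 and 0.18 ± 0.24, so the SD over animals exceeded the mean in both complexes at each hour.

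**Figure D2:**
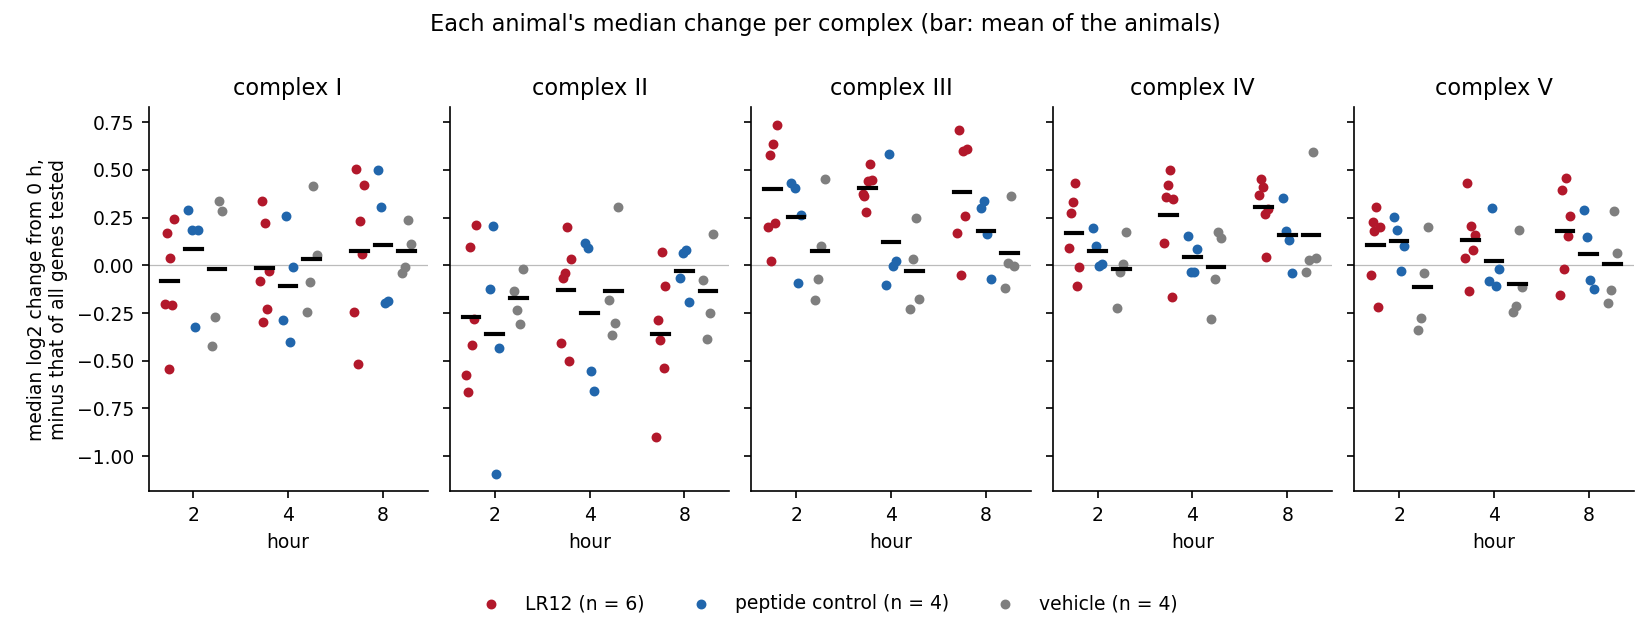
Median log2 change of each complex relative to the median of all genes, 1 point per animal, in the LR12, peptide control and vehicle arms at 2, 4 and 8 h against 0 h; bars are arm means. Complex III at 4 h runs from 0.28 to 0.53 in LR12 animals, above the 4 vehicle animals, and complex I points lie on both sides of 0 in each arm.

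Complex I joins a peripheral arm, where core subunits carry the flavin and iron-sulfur clusters that accept electrons from NADH, to a membrane arm with many accessory subunits. Among the 5 nuclear core genes analysed, 0, 1 and 0 rose and 2, 2 and 2 fell at 2, 4 and 8 h in the LR12 arm. The largest fall was that of NDUFS7, the subunit with the last iron-sulfur cluster before ubiquinone. Its median log2 intensity in LR12 animals, with the lowest and highest animal in brackets, was 8.77 (8.43 to 9.58) at 0 h, 7.56 (6.81 to 7.86) at 2 h, 6.79 (6.04 to 7.68) at 4 h, and 6.58 (6.40 to 8.58) at 8 h. Every animal stood below its own 0 h value at each hour, and the groups did not overlap with 0 h at 2 and 4 h, while Y31309 at 8 h reached into the 0 h range. The log2 change was -1.31 ± 0.27 (SE, adjusted p = 0.000176) at 2 h, -2.02 ± 0.27 (adjusted p = 1.53e-07) at 4 h and -1.85 ± 0.27 (adjusted p = 2.27e-06) at 8 h. A second probe set of NDUFS7 changed by only -0.13, -0.06 and 0.18. The mean of both remained called, at -0.72, -1.04 and -0.83.

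NDUFV1, the subunit that binds NADH and the flavin, had a median log2 intensity of 10.23 (9.51 to 10.38) at 0 h in LR12 animals, 9.34 (8.56 to 9.85) at 2 h, 8.08 (7.47 to 9.11) at 4 h, and 8.39 (7.74 to 9.57) at 8 h. It fell by 1.89 ± 0.38 on the log2 scale at 4 h (adjusted p = 6.87e-05) and by 1.53 at 8 h (adjusted p = 0.00167), and its change of -0.72 at 2 h was not called (adjusted p = 0.148). The second probe set of NDUFV1 differed by 0.47 and 0.49 at 4 and 8 h, in the other direction, and the mean of both was not called (-0.71 with adjusted p = 0.0726, and -0.52 with adjusted p = 0.226). NDUFS3, a core subunit of the peripheral arm, fell by 0.64 at 2 h (adjusted p = 0.00814), with uncalled values of -0.43 and -0.47 later. NDUFS1, the largest iron-sulfur subunit, rose by 0.48 at 4 h alone (adjusted p = 0.0294), with -0.16 and 0.06 at 2 and 8 h. NDUFV2, the partner of NDUFV1, had changes of 0.04, -0.14 and -0.29, none of them called.

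Of the 28 accessory complex I genes, 5, 4 and 2 rose and 8, 10 and 5 fell at 2, 4 and 8 h. NDUFB9, a membrane arm subunit, had a median log2 intensity of 10.94 (10.73 to 11.11) at 0 h in LR12 animals, 11.81 (11.12 to 12.10) at 2 h, 11.73 (11.36 to 12.50) at 4 h, and 11.67 (11.29 to 12.12) at 8 h. Each later group lay wholly above the 0 h values, with rises of 0.78, 0.94 and 0.77 (adjusted p = 0.00883, 0.00147 and 0.0118). NDUFB3 and NDUFB6, also of the membrane arm, rose by 1.09 and 0.77 at 2 h and by 1.44 and 0.74 at 4 h. The NDUFB6 calls were lost with the probe set mean (0.39, adjusted p = 0.165, and 0.34, adjusted p = 0.222), and NDUFB6 lay below the array median on 4 of 6 and NDUFB3 on 2 of 6 LR12 arrays at 0 h. NDUFA1, a small accessory subunit, rose by 0.49, 0.50 and 0.61. NDUFA2 rose by 0.36 at 2 h, a call lost after centring and with quantile normalization. The NDUFA1 and NDUFB6 calls at 2 and 4 h and the NDUFB3 call at 2 h were each lost on leaving out 1 of 3 or 4 LR12 animals, Y31310 and Y31312 among them for NDUFA1 and NDUFB6 and Y31311 to Y31314 for NDUFB3. The 8 h calls were lost without Y31312 for NDUFA1 and without Y31309 for NDUFB9.

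The accessory genes that fell included NDUFA12, which sits on the peripheral arm. Its median log2 intensity in LR12 animals was 9.81 (9.23 to 10.38) at 0 h, 9.20 (8.81 to 9.40) at 2 h, 8.88 (8.64 to 9.19) at 4 h, and 9.68 (8.99 to 10.08) at 8 h. Only the 4 h group lay wholly below 0 h, with changes of -0.66 at 2 h (adjusted p = 0.00758) and -0.91 ± 0.20 at 4 h (adjusted p = 0.000213). NDUFA3 changed by -1.22 and -1.46 at 2 and 4 h, and NDUFB5, of the membrane arm, by -0.95 and -0.89. NDUFAB1, the mitochondrial acyl carrier protein, fell by 0.73 at 2 h and by 0.66 at 4 h, NDUFA9 by 0.79 and 0.70, and NDUFA8 by 0.49 and 0.56. NDUFB10 fell at each hour (-0.68, -0.85 and -0.68), NDUFB7 at 4 and 8 h (-0.88 and -0.70) and NDUFA13 at 4 and 8 h (-0.88 and -0.99). NDUFV3 fell at 2 h (-1.15), NDUFA6 at 4 h (-0.83), and NDUFA7 and NDUFS4 at 8 h (-0.64 and -0.81). The remaining probe sets of NDUFB6 and NDUFB7 differed in sign from the chosen ones at 4 h. After centring, the 4 h calls of NDUFA6, NDUFA8, NDUFA9, NDUFA13, NDUFAB1, NDUFB5 and NDUFB7 were lost, as was the 2 h call of NDUFA8. At 8 h those of NDUFA7, NDUFA13, NDUFB7, NDUFB10 and NDUFS4 were lost after centring. With the probe set mean the NDUFV3 call at 2 h was lost (-0.62, adjusted p = 0.124). The calls of NDUFV3 at 2 h (Y31310), NDUFA13 at 8 h (Y31311, Y31312 or Y31313) and NDUFS4 at 8 h (10 of 14 animals) were lost without single animals.

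Complex II was read by SDHA, the flavoprotein that oxidises succinate, and by the membrane anchors SDHC and SDHD. SDHA had a median log2 intensity of 11.52 (10.99 to 11.73) at 0 h in LR12 animals, 10.27 (9.80 to 10.85) at 2 h, 10.29 (9.01 to 10.82) at 4 h, and 10.61 (10.15 to 10.88) at 8 h. Each later group lay below all 0 h values. The changes were -1.13 ± 0.27 (adjusted p = 0.000907), -1.21 (adjusted p = 0.000331) and -0.83 (adjusted p = 0.0164), of which the last was not called after centring (adjusted p = 0.157) or without Y31312. SDHC fell by 0.47 at 2 h (adjusted p = 0.0448) and by 0.50 at 8 h (adjusted p = 0.0345), with an uncalled -0.34 at 4 h. Its 2 h call was lost without any 1 of 8 animals and its 8 h call without any 1 of 4. Both SDHC calls were also lost after centring (adjusted p = 0.122 and 0.46) and with the probe set mean (adjusted p = 0.0847 and 0.117). SDHD had uncalled changes of 0.44, 0.43 and 0.13, and it lay below the array median on 3, 1, 1 and 2 of 6 LR12 arrays at 0, 2, 4 and 8 h.

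Complex III was read by the 2 core proteins UQCRC1 and UQCRC2 and by 4 small subunits. UQCRC1 had a median log2 intensity of 12.07 (11.84 to 12.40) at 0 h in LR12 animals, 12.70 (12.25 to 13.10) at 2 h, 12.54 (12.15 to 12.90) at 4 h, and 12.54 (12.06 to 12.91) at 8 h. The groups overlapped, and 6, 5 and 5 of the 6 animals stood above their 0 h value. UQCRC1 rose by 0.59 ± 0.15 (adjusted p = 0.00181), 0.41 (adjusted p = 0.0266) and 0.40 (adjusted p = 0.0398), calls that were lost with quantile normalization (adjusted p = 0.091, 0.149 and 0.189). UQCRC2, its partner, had the opposite sign in uncalled changes of -0.54, -0.42 and -0.41. UQCRB, a small subunit near the ubiquinone site, rose by 0.58 ± 0.19 at 2 h (adjusted p = 0.0141), with 0.11 and 0.19 later. The UQCRB call was lost with quantile normalization (adjusted p = 0.184), with the mean of its probe sets (0.31, adjusted p = 0.13) and without Y31310, and the UQCRC1 calls without Y31309, Y31312 or Y31313 at 4 h and without Y31310, Y31312, Y31313 or Y31314 at 8 h. UQCR10 had uncalled changes of 0.29, 0.59 and 0.64, while its other probe set changed by -0.36, -1.25 and -1.23. The uncalled changes of the remaining small subunits were, for UQCRQ, 0.15, -0.12 and -0.16 and, for UQCR11, 0.00, -0.04 and 0.17.

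Complex IV held the largest rise among the subunits. COX7B is a small nuclear subunit of the oxidase. Its median log2 intensity in LR12 animals was 9.02 (8.52 to 9.54) at 0 h, 9.69 (9.04 to 10.76) at 2 h, 11.58 (10.44 to 11.95) at 4 h, and 11.70 (10.29 to 12.29) at 8 h. Every animal was above its 0 h value at each hour, and the 4 and 8 h groups lay wholly above 0 h. The log2 change was 0.79 ± 0.45 at 2 h (adjusted p = 0.193), 2.34 ± 0.45 at 4 h (adjusted p = 4.98e-05, 5.06-fold) and 2.56 ± 0.45 at 8 h (adjusted p = 3.46e-05, 5.88-fold). In peptide control animals COX7B read 9.66, 8.86, 9.28 and 11.51 at 0 h and 9.99, 11.51, 11.81 and 11.85 at 8 h, an uncalled change of 1.46. In vehicle animals it read 9.69, 9.52, 10.26 and 10.07 at 0 h and 8.61, 9.74, 12.18 and 10.27 at 8 h, where 1 animal, Y31303, stood far above the others.

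COX7A2, the widely expressed form of subunit 7A, had a median log2 intensity of 8.01 (7.84 to 8.18) at 0 h in LR12 animals, 8.54 (8.25 to 9.03) at 2 h, 9.16 (9.01 to 9.71) at 4 h, and 9.38 (8.83 to 9.73) at 8 h. The later groups lay above 0 h, and the changes of 1.26 ± 0.23 at 4 h (adjusted p = 1.96e-05) and 1.31 ± 0.23 at 8 h (adjusted p = 2.84e-05) were called, while 0.57 at 2 h was not (adjusted p = 0.0511). COX5B, a zinc-binding subunit on the matrix side, had a median of 10.75 (10.65 to 10.88) at 0 h, 11.36 (11.02 to 11.77) at 2 h, 11.51 (11.03 to 11.67) at 4 h, and 11.48 (10.92 to 11.91) at 8 h. It rose by 0.63, 0.68 and 0.71 ± 0.17 (adjusted p = 0.00315, 0.00123 and 0.00143), with no overlap with 0 h at any of the hours, although the mean of its probe sets was not called at 2 h (0.33, adjusted p = 0.0941). COX8A, the smallest subunit, rose by 0.82, 0.77 and 0.85 ± 0.24 (adjusted p = 0.00606, 0.0081 and 0.0058), the 4 h call being lost without Y31311.

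Other complex IV genes fell in the same blood. COX5A, which binds the oxidase next to COX4, had a median log2 intensity of 11.95 (11.38 to 12.14) at 0 h in LR12 animals, 10.91 (10.47 to 11.46) at 2 h, 10.78 (10.54 to 11.26) at 4 h, and 11.37 (10.98 to 11.73) at 8 h. Each animal was below its 0 h value at each hour. The changes were -1.01 (adjusted p = 4.18e-06) at 2 h, -1.08 (adjusted p = 1.28e-06) at 4 h and -0.55 ± 0.17 (adjusted p = 0.00886) at 8 h. The 8 h call was lost after centring (-0.28, adjusted p = 0.359) and without Y31311. COX7A2L, which helps to join complexes III and IV into supercomplexes, changed by -0.67, -0.76 and -0.67 (adjusted p = 0.00284, 0.000648 and 0.00393), and its 4 and 8 h calls were lost after centring (-0.50, adjusted p = 0.0655, and -0.39, adjusted p = 0.182). COX4I1 changed by 0.14, -0.38 and -0.52, with calls at 4 and 8 h (adjusted p = 0.0315 and 0.00468) that were lost on centring and for the mean of its 4 probe sets (-0.01 and -0.07), and each also without Y31311.

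Several oxidase subunits have isoforms restricted to tissues such as lung, muscle or testis. The isoforms COX4I2, COX6A2, COX6B2 and COX7A1 gave no call at any hour in the LR12 arm. Their median log2 intensities at 0 h were 4.84, 4.80, 2.52 and 6.18, and COX6A2 had the largest changes, -1.18, -0.97 and -1.12 (adjusted p = 0.0648, 0.128 and 0.0866). COX6A2 lay below the array median on 3, 2 and 1 of 6 LR12 arrays at 2, 4 and 8 h. At 0 h COX6B2 did so on 5 of 6 and COX4I2 on 2 of 6. Of the widely expressed counterparts, COX6A1 (-0.23, -0.09 and -0.34) and COX6B1 (0.18, -0.21 and 0.01) were also without a call.

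**Figure D3:**
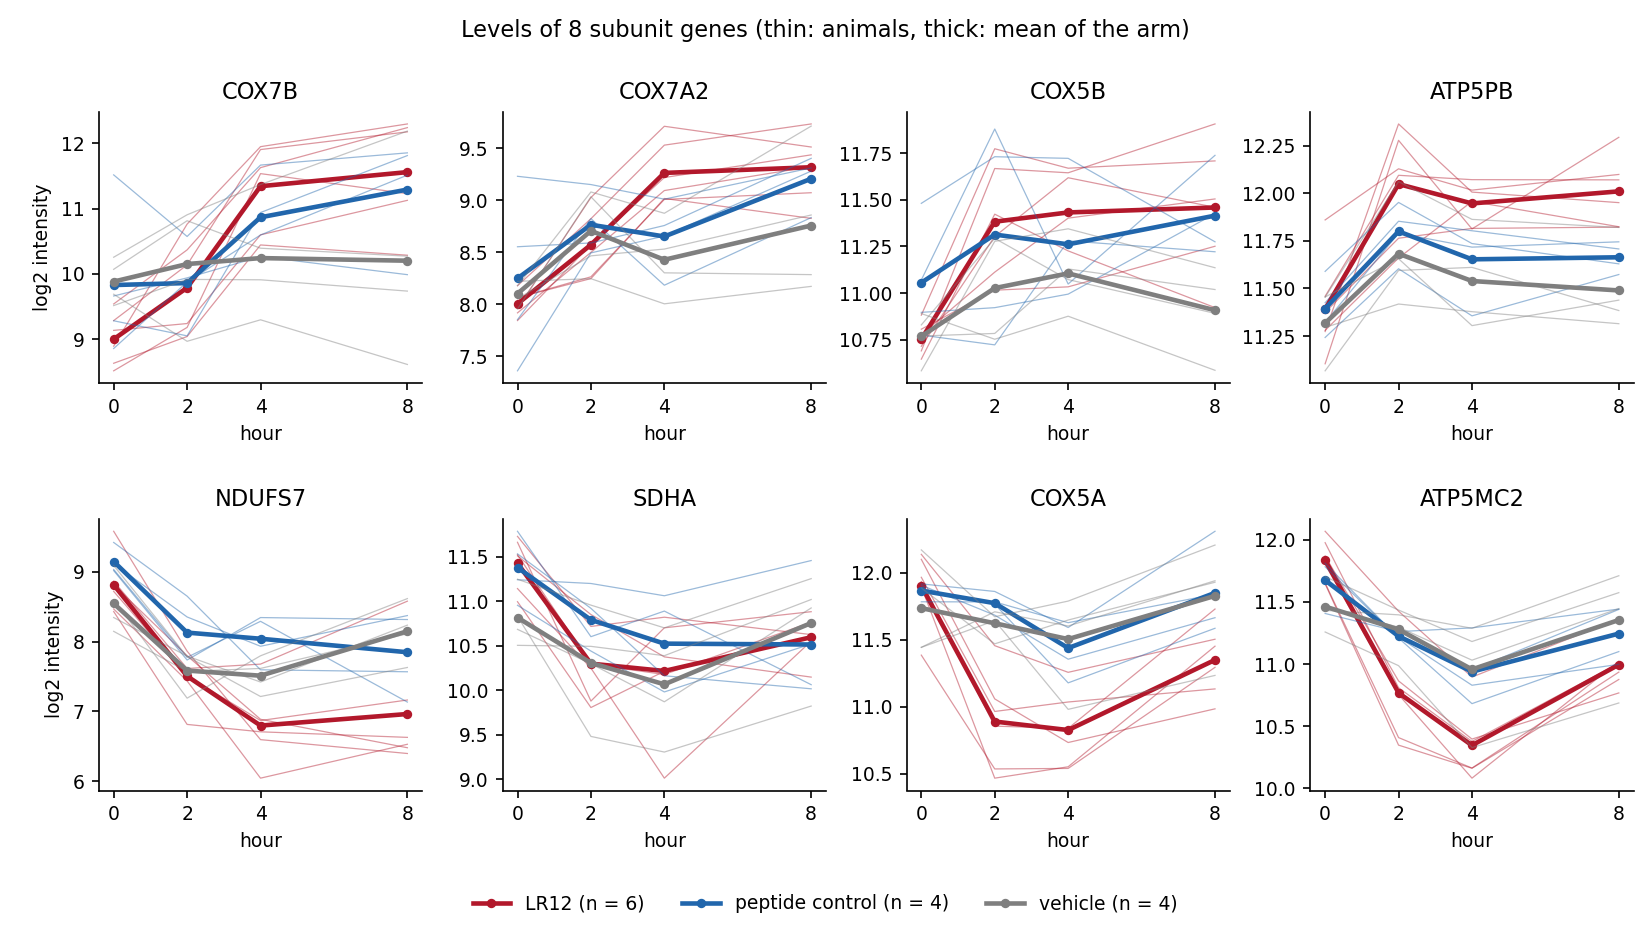
Log2 intensity of COX7B, COX7A2, COX5B, ATP5PB, NDUFS7, SDHA, COX5A and ATP5MC2 at 0, 2, 4 and 8 h in the LR12, peptide control and vehicle arms; thin lines are animals and thick lines arm means. In the LR12 arm COX7B means 9.002, 9.79, 11.34 and 11.56, against 9.88, 10.15, 10.24 and 10.20 in the vehicle arm, and NDUFS7 means 8.81, 7.51, 6.80 and 6.96, against 8.55, 7.59, 7.51 and 8.15.

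Complex V consists of a catalytic F1 head, a ring of c subunits that turns as protons pass, a peripheral stalk that holds the head still, and small membrane subunits. The 3 genes of the c ring, ATP5MC1, ATP5MC2 and ATP5MC3, encode the same mature protein. Of the 3, 3 fell at 2 h, 3 at 4 h and 1 at 8 h. ATP5MC2 had a median log2 intensity of 11.83 (11.65 to 12.07) at 0 h in LR12 animals, 10.78 (10.35 to 11.42) at 2 h, 10.27 (10.08 to 10.90) at 4 h, and 10.97 (10.77 to 11.36) at 8 h. Each later group lay wholly below 0 h, with changes of -1.07 ± 0.16 (adjusted p = 1.44e-06), -1.49 (adjusted p = 2.43e-09) and -0.84 (adjusted p = 0.00012). The other probe set of ATP5MC2 changed by -1.25, -1.11 and -0.75, and the mean of both was not called at 8 h (-0.79, adjusted p = 0.0617).

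ATP5MC1 had a median log2 intensity of 9.38 (8.92 to 10.04) at 0 h in LR12 animals, 8.16 (7.91 to 9.18) at 2 h, 8.44 (8.19 to 9.39) at 4 h, and 8.75 (8.57 to 9.35) at 8 h. The groups overlapped, with changes of -1.09 ± 0.25 (adjusted p = 0.000429) and -0.88 (adjusted p = 0.0035) called and -0.57 at 8 h not called (adjusted p = 0.0755). ATP5MC3 changed by -0.31 ± 0.09 (adjusted p = 0.0044) and -0.47 (adjusted p = 2.86e-05) at 2 and 4 h and by an uncalled -0.20 at 8 h. After centring, the 4 h calls of ATP5MC1 and ATP5MC3 were lost. With the probe set mean both ATP5MC3 calls were lost (-0.35, adjusted p = 0.0826, and -0.30, adjusted p = 0.126).

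Of the peripheral stalk genes, ATP5PB rose and ATP5PD fell. ATP5PB, subunit b of the stalk, had a median log2 intensity of 11.33 (11.10 to 11.86) at 0 h in LR12 animals, 12.11 (11.66 to 12.36) at 2 h, 11.98 (11.81 to 12.07) at 4 h, and 12.01 (11.82 to 12.29) at 8 h. All 6 animals stood above their 0 h value at each hour, though the ranges overlapped, and the changes were 0.66 ± 0.13 (adjusted p = 5.86e-05), 0.55 (adjusted p = 0.000422) and 0.62 (adjusted p = 0.000222). Its other probe set changed by 0.71, 0.48 and 0.39. ATP5PD, subunit d of the stalk, fell by 0.43 at 8 h (adjusted p = 0.0363), a call lost on centring and without Y31309, Y31311, Y31312 or Y31313. ATP5PF had uncalled changes of -0.03, 0.20 and 0.32 and ATP5PO of 0.15, -0.11 and 0.05.

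Within the F1 head, the alpha subunit ATP5F1A changed by -0.39, -0.60 and -0.35 (adjusted p = 0.00869, 8.1e-05 and 0.0224). The catalytic beta subunit ATP5F1B had -0.16 and -0.21 without a call and fell by 0.34 at 8 h (adjusted p = 0.0185). The gamma subunit ATP5F1C, the central shaft, moved the other way, by an uncalled 0.30 at 2 h and by 0.49 (adjusted p = 0.0033) and 0.48 (adjusted p = 0.00566) at 4 and 8 h. The epsilon subunit ATP5F1E rose by 0.62 at 2 h (adjusted p = 0.00683). None of the ATP5F1A and ATP5F1B calls remained after centring, and those of ATP5F1A were also lost with the probe set mean (adjusted p = 0.282, 0.288 and 0.455). The ATP5F1E call was lost with quantile normalization (adjusted p = 0.177) and the probe set mean (0.38, adjusted p = 0.213), and its other probe set changed by 0.15, -0.71 and -0.92. Among the 5 small membrane subunits ATP5ME fell at 4 and 8 h (-1.11 and -0.86). Its 8 h call was lost after centring (-0.58, adjusted p = 0.147) and with the probe set mean (-0.51, adjusted p = 0.104). Leaving out Y31310 ended the calls of ATP5F1E at 2 h, ATP5F1C at 8 h and ATP5F1A at 8 h, and leaving out Y31312 those of ATP5F1A, ATP5F1B and ATP5ME at 8 h. Those of ATP5F1A and ATP5F1B at 8 h were also lost without Y31311, and that of ATP5F1B without Y31309.

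The symbols that are not subunits gave falls and no rise in the LR12 arm, 3, 2 and 3 of 6 tested. ATP5IF1, the inhibitor that blocks ATP hydrolysis by the synthase, changed by -0.81, -1.03 and -0.76. SDHAF1, an assembly factor of complex II, fell by 0.89 at 2 h. The antisense RNA NDUFB2-AS1 was called lower at each hour (adjusted p = 0.000724, 0.000191 and 0.0247) and NDUFV2-AS1 at 8 h (adjusted p = 0.0491). NDUFB2-AS1 lay below the array median on 6, 5 and 3 of 6 LR12 arrays at 2, 4 and 8 h, and NDUFV2-AS1 on 5 of 6 at 8 h, so no size is given for these falls. At 8 h the calls of ATP5IF1, NDUFB2-AS1 and NDUFV2-AS1 were each lost without Y31309 or Y31312, among others.

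In the peptide control arm few respiratory chain genes were called, and each of them fell. At 2 h against 0 h, 1 of 80 fell (1.1% of all genes fell and 2.2% rose, 3.3% together), COX7C, a small oxidase subunit, with 9.09, 9.21, 8.71 and 9.26 at 2 h and 9.65, 9.74, 9.70 and 10.36 at 0 h (-0.79 ± 0.23, adjusted p = 0.0395). At 4 h, 4 fell and none rose (2.95% and 1.9% of all genes), namely NDUFS7 (-1.11, adjusted p = 0.0436), NDUFA12 (-0.93, adjusted p = 0.0228), COX7C (-0.74, adjusted p = 0.0475) and ATP5MC2 (-0.73, adjusted p = 0.0282). At 8 h, 1 fell (0.243% of all genes), NDUFS7 (-1.30, adjusted p = 0.0466). NDUFS7 read 8.35, 7.60, 8.29 and 7.93 at 4 h and 8.32, 7.57, 7.13 and 8.37 at 8 h, against 9.02, 9.42, 9.04 and 9.12 at 0 h, so the later values lay below 0 h in 4 of 4 animals. With the animal as a block, 4, 13 and 3 genes were called at 2, 4 and 8 h, against 7.63%, 15.3% and 4.29% of all genes. The block added rises of NDUFB9 (0.77) and ATP5PB (0.40) and a fall of NDUFS7 (-1.02) at 2 h, and rises of COX7A2 (0.96) and COX7B (1.46) at 8 h. After centring, limma called 0 at each hour, and at an unadjusted p under 0.05 without centring 7, 24 and 15 genes passed. Leaving out Y31306, Y31307 or Y31308 brought each of the 3 counts to 0, and without Y31305 they were 1, 11 and 4. Leaving out Y31301, Y31302, Y31304, Y31311, Y31312 or Y31313 also ended the 8 h call, and leaving out Y31303 gave 8 calls at 4 h and 2 at 8 h, while 2 remained at 4 h without Y31302 or Y31304 and 2 were made at 2 h without Y31309.

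In the vehicle arm limma called 0 of the 80 genes at 2, 4 and 8 h against 0 h, where 0%, 0.0125% and 0.0375% of all genes were called (0.025% as falls at 8 h). At an unadjusted p under 0.05, 7, 12 and 3 genes passed, and the block, centring and quantile normalization also called 0. NDUFS7 read 7.57, 7.79, 7.79 and 7.19 at 2 h and 7.62, 7.42, 7.21 and 7.80 at 4 h, against 8.15, 8.35, 9.09 and 8.60 at 0 h, lower in 4 of 4 animals at both hours with uncalled changes of -0.96 and -1.04. SDHA had uncalled changes of -0.51, -0.75 and -0.06 and COX7B of 0.27, 0.36 and 0.32. Animal Y31303 stood apart in this arm at 8 h, with COX7B at 12.18 and COX5A at 11.23, against 8.61 to 10.27 and 11.93 to 12.21 in the other 3.

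Set against the peptide control at the same hour, LR12 animals had lower levels of a few subunits. At 2 h, 3 of 80 genes were lower (2.71% of all genes), at 4 h 1 (0.98%, or 1.35% in both directions), and none was higher. COX5A at 2 h had a median of 10.91 (10.47 to 11.46) in LR12 animals, against 11.86, 11.68, 11.77 and 11.78 in peptide control animals, with no overlap. The difference was -0.88 ± 0.18 (adjusted p = 0.00635), and it was not called after centring (adjusted p = 0.0575) or for the mean of its probe sets (adjusted p = 0.068). ATP5MC1 at 2 h had a median of 8.16 (7.91 to 9.18) in LR12 animals, against 10.36, 9.07, 9.30 and 9.63 in peptide control animals (-1.25 ± 0.27, adjusted p = 0.00967), and NDUFAB1 a median of 8.29 (7.76 to 9.01) in LR12 animals, against 9.44, 9.23, 8.90 and 9.06 in peptide control animals (-0.87 ± 0.21, adjusted p = 0.0139). At 4 h NDUFS7 had a median of 6.79 (6.04 to 7.68) in LR12 animals, against 8.35, 7.60, 8.29 and 7.93 in peptide control animals (-1.25 ± 0.31, adjusted p = 0.0295), a call lost for the mean of its 2 probe sets (-0.58, adjusted p = 0.299). At 8 h limma called 0 genes, 0.0187% of all genes were called, and 14 of the 80 passed at an unadjusted p under 0.05. The block called 6 genes at 2 h and 2 at 4 h (4.53% and 1.85% of all genes), adding SDHC, UQCRC2 and SDHAF1 at 2 h and ATP5MC2 at 4 h (-0.59, adjusted p = 0.0453). Leaving out Y31305 left 1 and 0 calls at 2 and 4 h, leaving out Y31309 gave 12 and 5 and leaving out Y31303 gave 6 and 4. The 4 h call of NDUFS7 was also lost without Y31307, Y31308, Y31312, Y31313 or Y31314, and that of NDUFAB1 at 2 h without Y31305, Y31306 or Y31310.

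Set against vehicle, more genes were called, and most of those at 2 h were lower in LR12 animals. At 2 h, 1 of 80 genes was higher and 9 were lower in LR12 animals, against 4.61% and 11.3% of all genes. NDUFB5 had a median of 8.62 (8.19 to 9.27) in LR12 animals, against 9.29, 9.69, 9.68 and 9.88 in vehicle animals (-0.997 ± 0.25, adjusted p = 0.00482). NDUFA12 had a median of 9.20 (8.81 to 9.40) in LR12 animals, against 9.73, 9.97, 9.71 and 10.41 in vehicle animals (-0.81 ± 0.22, adjusted p = 0.00833). COX5A had a median of 10.91 (10.47 to 11.46) in LR12 animals, against 11.47, 11.67, 11.64 and 11.71 in vehicle animals (-0.73 ± 0.18, adjusted p = 0.00452). In these 3 genes the arms did not overlap, and they were the 3 of 80 without overlap (3.75%), against 6.45% of all genes. NDUFAB1 (-0.76), COX7A2L (-0.64), ATP5MC1 (-0.80), ATP5MC2 (-0.51), NDUFB2-AS1 and SDHAF1 (-0.92) were also lower, and ATP5MG, a small membrane subunit of the synthase, was higher (0.44, adjusted p = 0.0451). The ATP5MG call was lost after centring (adjusted p = 0.0557), with quantile normalization (adjusted p = 0.339), with the probe set mean (adjusted p = 0.189) and without any 1 of 11 of the 14 animals. The ATP5MC2 call was likewise lost without any 1 of 11 animals, after centring (adjusted p = 0.0982) and with the probe set mean (adjusted p = 0.299). Calls of COX7A2L (adjusted p = 0.0759) and ATP5MC1 (adjusted p = 0.0773) were lost after centring, and that of SDHAF1 with the probe set mean (adjusted p = 0.118).

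**Figure D4:**
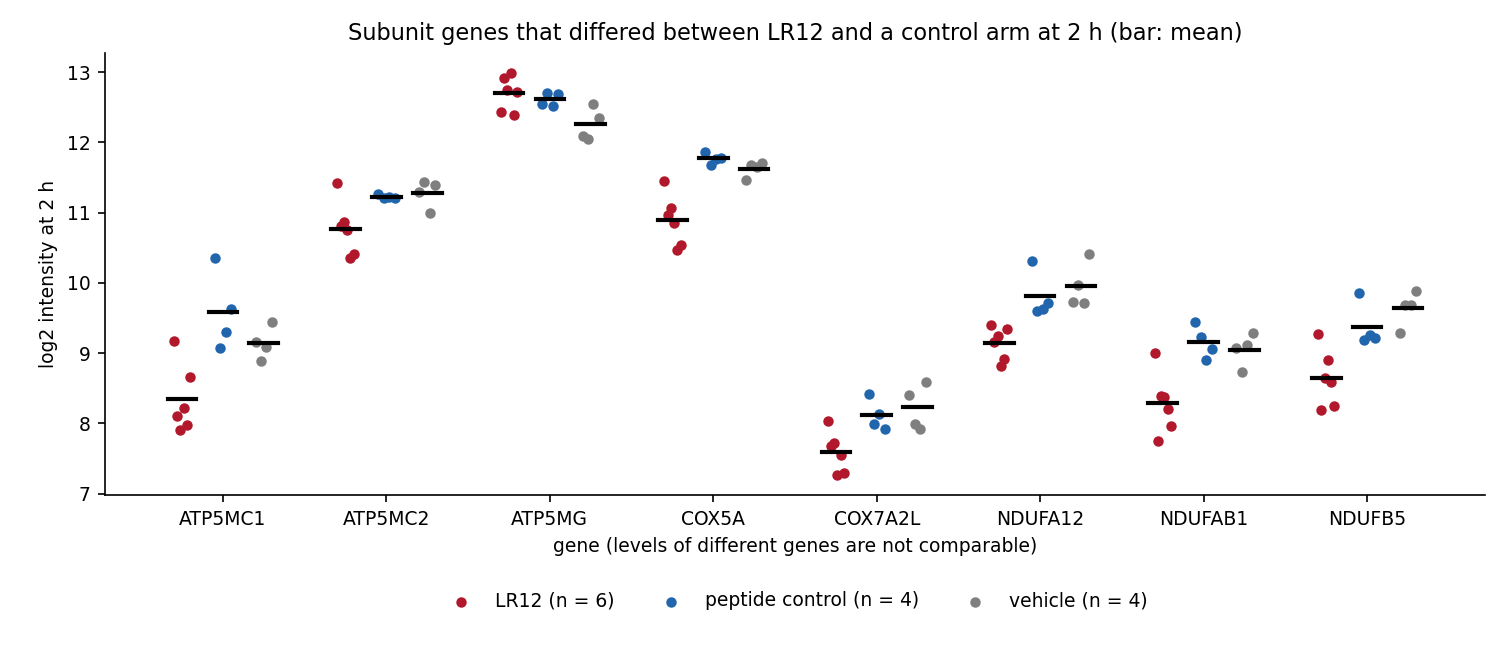
Log2 intensity at 2 h of ATP5MC1, ATP5MC2, ATP5MG, COX5A, COX7A2L, NDUFA12, NDUFAB1 and NDUFB5, 1 point per animal, in the LR12, peptide control and vehicle arms; bars are arm means. The 6 LR12 animals lie between 10.47 and 11.46 for COX5A, below the 4 peptide control animals (11.68 to 11.86) and the 4 vehicle animals (11.47 to 11.71).

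At 4 h, 2 of 80 genes were higher in LR12 than in vehicle animals and 4 were lower, against 4.36% and 7.56% of all genes. COX7A2 had a median of 9.16 (9.01 to 9.71) in LR12 animals, against 8.00, 8.53, 8.87 and 8.30 in vehicle animals, without overlap (0.84, adjusted p = 0.0244), and ATP5PB was also higher (0.41, adjusted p = 0.0491). NDUFA12 (-0.82), COX5A (-0.68), COX7A2L (-0.63) and ATP5MC2 (-0.61) were lower. For the mean of the probe sets the COX5A (-0.56, adjusted p = 0.148), ATP5PB (0.32, adjusted p = 0.381) and ATP5MC2 (-0.04, adjusted p = 0.964) differences were not called, and after centring those of COX7A2, ATP5PB and COX7A2L were not. At 8 h, 1 gene was higher and 2 were lower, against 0.93% and 1.79% of all genes (2.72% together). ATP5PB had a median of 12.01 (11.82 to 12.29) in LR12 animals, against 11.32, 11.38, 11.82 and 11.44 in vehicle animals (0.52, adjusted p = 0.0354). NDUFS7 (-1.19, adjusted p = 0.0259) and COX7A2L (-0.69, adjusted p = 0.0472) were lower, the NDUFS7 call being lost for the mean of its probe sets (-0.19, adjusted p = 0.751). The ATP5PB call was lost for the mean of its probe sets (adjusted p = 0.123), and after centring ATP5PB (adjusted p = 0.0729) and COX7A2L (adjusted p = 0.142) were not called. With the block, 5 genes were called at 8 h (4.64% of all genes), the additional ones being NDUFA1 (0.67) and SDHC (-0.67).

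The counts against vehicle rested on single animals. Without Y31303 they were 16, 18 and 15 at 2, 4 and 8 h, against 10, 6 and 3 with it. Without Y31301 they were 5, 0 and 0, without Y31302 6, 1 and 0, without Y31304 5, 0 and 0, and without Y31312 5, 3 and 0. Leaving out Y31310 gave 6 at 2 h and 0 at 8 h, leaving out Y31314 gave 3 at 4 h and 0 at 8 h, leaving out Y31311 or Y31313 gave 1 and 0 at 8 h, and leaving out Y31309 gave 6 at 8 h. Within the low-control arrays alone, the fit called 11 genes at 4 h and 11 at 8 h (14.9% and 11.8% of all genes), with COX7B higher by 2.67 at 8 h (adjusted p = 0.0036). That fit left out 2 of 4 vehicle arrays at 8 h, Y31303 among them, and 3 of 6 LR12 arrays. Over all arrays COX7B was not among the 3 genes called at 8 h.

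At 0 h limma called 0 respiratory chain genes between LR12 and peptide control or vehicle animals (0% and 0.0187% of all genes), with 6 and 4 genes at an unadjusted p under 0.05. Between peptide control and vehicle it called 0 at 0, 2, 4 and 8 h (0%, 0%, 0.00624% and 0% of all genes), with 0, 7, 11 and 7 genes at an unadjusted p under 0.05.

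Whether the change from 0 h itself differed between arms was tested in the same model. In the fit without the animal as a block, limma called 0 of 80 genes for LR12 against peptide control (0%, 0% and 0% of all genes at 2, 4 and 8 h) and 0 for LR12 against vehicle (2.17%, 0.218% and 0%). At an unadjusted p under 0.05, 12, 10 and 2 genes passed against peptide control and 12, 11 and 12 against vehicle. In this fit a call in the LR12 arm and none in vehicle therefore does not show a difference between the arms. That difference was tested and called for 0 of 80 genes. With the animal as a block, which uses each animal's own 0 h array, COX5A was called against peptide control at 2 h (-0.92, adjusted p = 0.0265; 1.17% of all genes). Against vehicle the block called 4, 6 and 3 genes (10.5%, 7.02% and 1.74% of all genes). At 2 h these were COX5A (-0.90, adjusted p = 0.00676), ATP5MC2 (-0.88, adjusted p = 0.00533), NDUFB5 (-0.98, adjusted p = 0.0259) and UQCRB (0.85, adjusted p = 0.0409). At 4 h they were COX7B (1.98, adjusted p = 0.026), COX7A2 (0.93, adjusted p = 0.0488), ATP5MC2 (-0.98, adjusted p = 0.00515), COX5A (-0.85, adjusted p = 0.0163), NDUFV1 (-1.55, adjusted p = 0.0387) and NDUFB10 (-0.84, adjusted p = 0.0434). At 8 h they were COX7B (2.24, adjusted p = 0.0325), NDUFS7 (-1.45, adjusted p = 0.0417) and ATP5MC2 (-0.73, adjusted p = 0.0495).

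Genes that build or feed the chain were read beside it in the LR12 arm, where 10.1%, 10.8% and 8.65% of all genes rose and 21.9%, 26% and 20.4% fell at 2, 4 and 8 h. Of 42 assembly factors tested, 1, 2 and 3 rose and 16, 20 and 15 fell at 2, 4 and 8 h, with a median log2 change of -0.56, -0.71 and -0.53, against -0.18, -0.29 and -0.27 for all genes. Among them were ECSIT (-1.45, -3.06 and -2.22), which acts on complex I, TTC19 (-1.76, -2.14 and -1.71) and BCS1L (-1.74, -1.45 and -1.03), which act on complex III, and COX11 (-2.04, -2.20 and -1.51), which brings copper to complex IV. NDUFAF6, an assembly factor of complex I, rose by 1.40 at 2 h. In the peptide control arm COX11 was also called lower at 4 and 8 h (-2.14 and -2.36) and NDUFAF6 higher at 2 h (1.55). ECSIT, TTC19 and BCS1L were not called in that arm. The lists here and in the next paragraph were read in the fit without centring alone. Of 5 electron carriers, 1, 2 and 2 fell and none rose, led by ETFA, which passes electrons from fatty acid oxidation (-2.07, -1.83 and -1.40).

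Of 11 citric acid cycle genes, 3, 0 and 1 rose and 4, 3 and 2 fell, to be read against the same shares of all genes. SUCLG2, a subunit of the GTP-forming succinyl-CoA ligase, changed by -2.10, -2.37 and -1.47 and IDH3B by -1.68, -1.75 and -1.19, while CS, citrate synthase, rose by 0.67 at 2 h. Of 10 genes of pyruvate entry, 2, 1 and 3 rose and 3, 4 and 2 fell. PDK1, a kinase that turns off pyruvate dehydrogenase, changed by 0.78, 1.86 and 0.78, and PDK4, another such kinase, fell by 2.25 at 2 h and rose by 1.60 at 8 h. Of 17 import and outer membrane genes, 1 rose and 7, 8 and 5 fell, among them TIMM10 (-1.41, -1.56 and -1.16). Of 14 regulators of mitochondrial gene expression, 1 rose at each hour and 4, 5 and 4 fell, including TFB1M (-1.56, -1.34 and -1.06), a factor for mitochondrial ribosomal RNA. Of the 13 subunits encoded in mitochondrial DNA, 3 were tested, and COX1 rose by 0.72 at 8 h (adjusted p = 0.00692).

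Many member genes had a second probe set with which the chosen one could be compared. Of the 84 genes, 46 had at least 2 probe sets. Among called genes of the LR12 arm, 26 of 27 other probe sets at 2 h, 18 of 24 at 4 h and 22 of 28 at 8 h had a change of the same sign as the chosen one. Counted by gene, all other probe sets had that sign for 15 of 16 at 2 h, 11 of 16 at 4 h and 11 of 17 at 8 h. The same sign did not always mean a similar size, as for NDUFS7 at 4 h (-2.02 against -0.06). By array set, the low-control arrays alone gave 10 rises and 26 falls at 2 h (10.4% and 22.7% of all genes). They gave 10 rises and 22 falls at 4 h (9.93% and 22.6%). For 8 h the counts were 10 rises and 13 falls (7.3% and 15.8%). The high-control arrays alone gave 0 calls at 2 h, 6 falls at 4 h and 0 calls at 8 h (1.68%, 4.37% and 2.25% of all genes), from a single LR12 array at 0 h.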

How the data were processed

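Whole blood was collected in PAXgene tubes and biotinylated cDNA was made with a NuGEN kit, per the labels. The authors deposited linear intensity values of 54675 probe sets, for which the submitters' processing notes name MAS5 (version not given in the sources used here). The mean left after trimming 2% at each end was 150.03 to 150.04 on every array. Intensities were put on the log2 scale, probe sets above the array median on at least 4 of 56 arrays were kept (38826), and each gene was read by the kept one with the highest mean. 1 linear model over 12 groups of arm and hour was fitted with limma 3.58.1 in R 4.3.3 (trend and robust), with Benjamini-Hochberg adjustment over 16020 genes in each of 27 comparisons. Symbols come from the platform annotation. The animal was used as a block with statmod 1.5.0; residuals of an animal's own arrays correlated at a mean of 0.180 (0.103 to 0.328 per animal), others at -0.0294. Alternatives were scaling, filter, offset, probe set mean, array set and leaving out animals. Named genes were, per complex, up to 4 called rises and 4 falls, core subunits and isoform sets; further called genes were named after their values were seen. The members and lists were chosen with earlier results of these data known. Scripts were tested on simulated data. The labels name separate animals as replicates.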

Additional observations from a re-analysis of the deposited data

Results flagged for a closer look

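Of 228 groups of 4 or 6 animals examined, 12 held an animal flagged as apart from the others of its arm and hour, and chance gives about 1 in 20. Mean deviations of a complex are log2 differences from each gene's mean over all arrays, averaged over its genes. In complex I, peptide control animal Y31305 stood at 0.519 at 8 h, with the nearest animal at -0.0095, and LR12 animal Y31311 at -0.487 at 8 h, with the nearest at -0.090. In complex III, LR12 animal Y31310 stood at -0.470 at 0 h, with the nearest at -0.054. In complex V, LR12 animal Y31311 stood at -0.438 at 4 h, with the nearest at -0.149.

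For single genes the values are log2 intensities. NDUFS7 was 8.58 in LR12 animal Y31309 at 8 h (nearest 7.16), and ATP5MC1 was 9.39 in the same animal at 4 h (nearest 8.52). SDHA was 9.01 in LR12 animal Y31310 at 4 h (nearest 10.18), and COX5A was 11.4 in LR12 animal Y31314 at 0 h (nearest 11.89). Peptide control animal Y31305 had NDUFA12 at 10.31 (nearest 9.71) and ATP5MC2 at 11.26 (nearest 11.22) at 2 h, and peptide control animal Y31308 had NDUFV1 at 9.89 at 0 h (nearest 9.55). The ATP5MC2 gap was small, the other animals lying between 11.21 and 11.22. UQCRC1 was 12.04 in vehicle animal Y31304 at 8 h (nearest 12.37).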

How the results depend on the processing

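The counts below are of respiratory chain genes called, out of 80. In the LR12 arm against 0 h the counts of 32, 35 and 29 at 2, 4 and 8 h became 0, 6 and 0 in the high-control arrays alone, and the 8 h count became 19 after centring; they stayed within 1.5 times of 32, 35 and 29 under the block, quantile normalization, the filters, an offset of 16, the probe set mean, the array set covariate and the low-control arrays. Leaving out 1 animal gave 25 to 33, 28 to 35 and 16 to 31. In the peptide control arm the counts of 1, 4 and 1 became 4, 13 and 3 with the block and 0, 0 and 0 after centring. The probe set mean gave 0, 2 and 0, no filter gave 2 at 4 h and 0 at 8 h, the low-control arrays gave 0 at 2 and 8 h, and the high-control arrays gave 0 at 4 h. Leaving out 1 animal gave 0 to 2, 0 to 11 and 0 to 4, and 0 to 0 in the vehicle arm.

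For LR12 against peptide control, 3 calls at 2 h became 6 with the block, 1 after centring, 5 with the array set as a covariate and 6 in the low-control arrays. The 1 call at 4 h became 2 with the block and with the stricter filter of 28 arrays, and 0 with the probe set mean and in the high-control arrays. Leaving out 1 animal gave 1 to 12, 0 to 5 and 0 to 1 at 2, 4 and 8 h. For LR12 against vehicle, 10 calls at 2 h became 6 after centring. The 6 at 4 h became 3 after centring, 12 with the array set as a covariate, 11 in the low-control and 0 in the high-control arrays, and 9 with the block. The 3 at 8 h became 5 with the block, 1 after centring, 0 with quantile normalization, 5 with the stricter filter, 1 with the probe set mean, 5 with the array set as a covariate, 11 in the low-control and 1 in the high-control arrays. Leaving out 1 animal gave 5 to 16, 0 to 18 and 0 to 15, and 0 to 2, 0 to 3 and 0 to 1 for peptide control against vehicle.

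For the difference in change from 0 h, the 0 calls against peptide control at 2 h became 1 with the block, and those against vehicle became 4, 6 and 3 with the block at 2, 4 and 8 h and 2 with the stricter filter at 2 h. Leaving out 1 animal gave 0 to 0 against peptide control, and 0 to 2, 0 to 3 and 0 to 3 against vehicle. The median of complex II at 4 h relative to all genes moved to -0.381 and that of complex V to -0.249 with quantile normalization, against -0.05 and 0.03. The median of complex III was 0.217, 0.202 and 0.169 with the probe set mean at 2, 4 and 8 h, against 0.40, 0.32 and 0.45, and 0.203 with the offset at 4 h, and that of complex IV at 8 h to 0.176 with the offset, against 0.35. Leaving out 1 animal moved complex IV between -0.044 and 0.319 at 2 h and between 0.301 and 0.531 at 8 h.

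Of 106 values of named genes, 106 kept their call under the block, 99 with the array set, 68 after centring, 87 with quantile normalization and 72 with the probe set mean. In the high-control arrays alone 6 kept it, 83 lost it and 3 turned direction: UQCRC1 to -0.0646 at 4 h and -0.0371 at 8 h, and NDUFS4 to 0.15 at 8 h. The high-control set holds fewer arrays than the low-control set, and the causes of these changes were not tested.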
